A study of Mus musculus with 4 samples.

Results

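The retention and residency genes of intestinal T cells followed here over 4 arrays are Itgae, Itgb7, Itga4, Itga1, Cd69 and Bhlhe40. They were taken by name, and all 6 were measured, out of 22180 genes with a level on the arrays. Each of the 6 had 1 probe set that listed its symbol alone. A further probe set that listed Itga4 together with Cerkl was left out; its levels lay between 1.43 and 2.28.

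The arrays measured RNA of T cells enriched from the gut of C57Bl/6 mice aged 8 to 10 weeks, with 1 array per group. The groups were intraepithelial lymphocytes (IEL, the lymphocytes that sit between the epithelial cells) of the colon from mice given antibiotics and then recolonized (Recolonized), colon IEL of unmanipulated mice (WT_IEL), IEL of the small intestine of unmanipulated mice (SI_IEL), and colon T cells labelled lamina propria (LP). Vancomycin, ampicillin, neomycin and metronidazole were dissolved in the drinking water over 7 days, and recolonization through untreated littermates or their bedding took another 7 days. A group given antibiotics without recolonization was not analysed here, so the effects of the drugs and of the returning bacteria cannot be told apart. Per the labels 10 mice (5 male and 5 female) were pooled; the wording leaves unclear whether that holds for each array or for the series. T cells were obtained by magnetic negative selection with an added antibody against the epithelial protein EpCAM. With 1 array per group no spread between replicates exists, so the differences below have no test and no error, and the number of arrays limits their precision.

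Integrins are surface receptors made of an alpha and a beta chain. Itgae and Itgb7 encode the chains of integrin alphaE beta7 (CD103 is the alphaE chain), which binds E-cadherin on epithelial cells and helps to hold T cells in the epithelium. The same beta7 chain pairs with alpha4 (Itga4) into alpha4 beta7, which binds the vessel addressin MAdCAM-1 and brings lymphocytes into the gut, while alpha4 with beta1 binds VCAM-1. Itga1 encodes CD49a, which pairs with beta1 into a collagen receptor. CD69 is a membrane protein that takes the egress receptor S1PR1 off the cell surface, and BHLHE40 is a basic helix-loop-helix transcription repressor used by resident T cells and by many other cells.

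Upstream sequences of 3 members, Itga4, Itga1 and Itgb7, were found in a RefSeq promoter table of GRCm38.p6, and they are shown because these 3 integrin genes had 3 different patterns over the arrays. Each window runs from 250 bases before an annotated start to 50 bases from it onward and is read 5′ to 3′ on the gene's strand. Capitals mark matches on either strand to a RUNX core (TGTGGT), an ETS core (GGAAGT) or a GC box (GGGCGG).

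Itga4 (chr2:79255176-79255475, plus strand): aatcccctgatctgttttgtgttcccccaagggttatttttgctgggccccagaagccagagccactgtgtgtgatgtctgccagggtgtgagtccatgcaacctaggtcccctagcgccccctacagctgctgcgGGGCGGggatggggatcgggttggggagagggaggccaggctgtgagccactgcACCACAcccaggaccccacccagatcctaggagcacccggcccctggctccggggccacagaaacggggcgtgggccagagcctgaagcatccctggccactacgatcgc

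Itga1 (chr13:115101915-115102214, minus strand): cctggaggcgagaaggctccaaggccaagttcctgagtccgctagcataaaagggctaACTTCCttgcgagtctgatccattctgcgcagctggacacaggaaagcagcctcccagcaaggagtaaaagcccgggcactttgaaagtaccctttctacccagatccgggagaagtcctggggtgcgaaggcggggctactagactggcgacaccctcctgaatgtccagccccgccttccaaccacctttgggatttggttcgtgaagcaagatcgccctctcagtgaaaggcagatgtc

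Itgb7 (chr15:102231886-102232185, minus strand): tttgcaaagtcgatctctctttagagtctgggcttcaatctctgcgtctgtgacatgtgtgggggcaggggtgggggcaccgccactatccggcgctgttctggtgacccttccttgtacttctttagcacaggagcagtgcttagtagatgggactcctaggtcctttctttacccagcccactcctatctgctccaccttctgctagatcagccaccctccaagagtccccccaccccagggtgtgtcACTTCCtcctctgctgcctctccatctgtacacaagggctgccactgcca

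The Itga4 window held 1 RUNX core, beginning 60 bases before the start, and 1 GC box, beginning 114 bases before it. The Itga1 window held 1 ETS core, 192 bases before the start, and the Itgb7 window held 1 ETS core that begins at the start base. The Itgb7 window lies inside the annotated gene, which has an earlier start. None of the 3 windows held the E-box CACGTG or the AP-1 motif TGANTCA, and no matches overlapped. Of all 32851 windows in the table, 16.8% held the RUNX core, 23.8% the ETS core, 35.7% the GC box, 7.2% the E-box and 7.8% the AP-1 motif. The motifs were chosen with the sequences in view, and a match describes letters only.

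The arrays were first set against their labels. Of 12 T cell markers 10 were measured, and their median log2 level was 6.90 on the recolonized, 6.17 on the colon IEL, 5.93 on the small intestinal IEL and 2.37 on the array labelled lamina propria. The median gene on the latter was at 2.18, so the T cell markers were close to the middle of all genes there, while its 13 epithelial markers had a median of 8.51. What it held thus went against what it was labelled as, so it is referred to only by its label. Epithelial markers were also present on the IEL arrays, with medians of 5.81 (recolonized), 4.53 (colon) and 6.98 (small intestine). B cell markers were high on the small intestinal IEL array, with a median of 6.24 over 9 measured genes, against 2.62 on the recolonized, 3.16 on the colon and 1.98 on the array labelled lamina propria. In such mixed RNA, fewer cells of a type and less RNA per cell cannot be told apart.

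**Figure D1:**
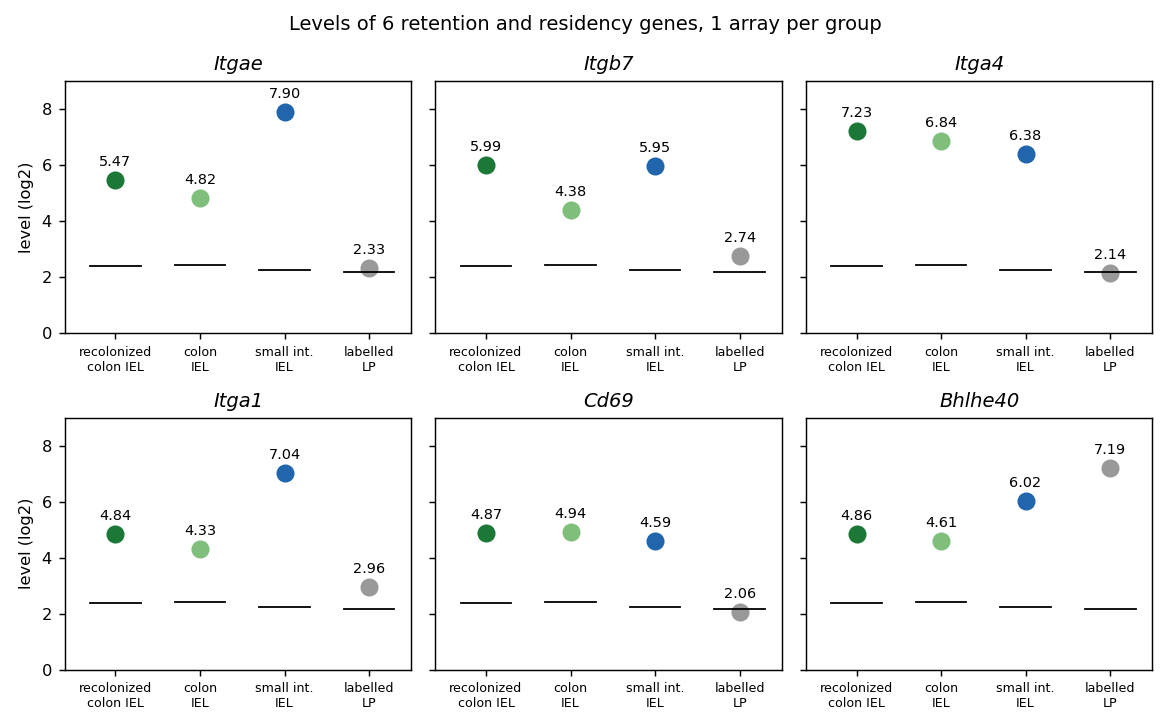
Log2 level of each of the 6 genes on each array (1 array per group, 1 point per array, no error); the black bar is the median of all genes on that array. Itgae and Itga1 were highest on the small intestinal IEL array, at 7.90 and 7.04, and Bhlhe40 was highest on the array labelled lamina propria, at 7.19.

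Itgae, the alphaE chain, had a log2 level of 5.47 on the recolonized, 4.82 on the colon IEL, 7.90 on the small intestinal IEL and 2.33 on the array labelled lamina propria. The small intestinal IEL array was thus the high one, both colon IEL arrays were intermediate, and the array labelled lamina propria was near its median gene (53.4th percentile). Itga1, the CD49a chain, had the same order, with 4.84 on the recolonized, 4.33 on the colon IEL, 7.04 on the small intestinal IEL and 2.96 on the array labelled lamina propria. Among the other members, Itga1 had the profile nearest to that of Itgae, at a Euclidean distance of 1.15 between the 4 log2 levels centred on each gene's mean.

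In the deposited values Itgb7, the beta7 chain shared by alphaE beta7 and alpha4 beta7, followed Itgae on only 1 of the colon arrays. Against small intestinal IEL it was lower on the unmanipulated colon IEL array, as Itgae was, but not on the recolonized array. It was at 5.99 on the recolonized, 4.38 on the colon IEL, 5.95 on the small intestinal IEL and 2.74 on the array labelled lamina propria. On that scale the recolonized and small intestinal arrays were alike for this gene, and the unmanipulated colon IEL array stood below both. Over the scalings tried, the difference of recolonized minus small intestinal IEL ranged from -0.12 to 0.89. As a rank among all genes of its own array, Itgb7 was at the 96.9th percentile on the recolonized, the 91.0th on the colon IEL and the 93.5th on the small intestinal IEL array.

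Itga4, the alpha4 chain, was at 7.23 on the recolonized, 6.84 on the colon IEL, 6.38 on the small intestinal IEL and 2.14 on the array labelled lamina propria. All 3 IEL arrays were high and within 0.85 of each other, in the reverse order of Itgae and Itga1 between colon and small intestine. Cd69 was flatter still, at 4.87 on the recolonized, 4.94 on the colon IEL and 4.59 on the small intestinal IEL array, against 2.06 on the array labelled lamina propria. Its 3 IEL levels differed by at most 0.35.

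Bhlhe40 was the only member that was highest outside the IEL arrays. It was at 4.86 on the recolonized, 4.61 on the colon IEL, 6.02 on the small intestinal IEL and 7.19 on the array labelled lamina propria. The epithelial marker medians stood in the same order over the 4 arrays, and the part of epithelial RNA in the Bhlhe40 levels was not tested.

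How the retention genes differ along the gut was asked by setting each colon IEL array against the small intestinal one. Counts cover genes that reached the median of all genes on the brighter array of the pair, and the threshold was 2-fold. On the unmanipulated colon IEL array 4 of the 6 genes were lower by that rule, namely Itgae, Itga1, Itgb7 and Bhlhe40, and none was higher. Over all 12551 genes that entered, 24.4% were lower and 5.98% higher, with a median difference of -0.30, against a median of -1.49 for the 6 genes. On the recolonized array 3 of the 6 were lower than on the small intestinal IEL array (Itgae, Itga1 and Bhlhe40) and none was higher, where 17.9% of all genes were lower and 4.76% higher. The median differences there were -0.56 for the 6 genes and -0.20 for all genes that entered. Both comparisons share the small intestinal IEL array. The shares over all genes are not matched for level, while the 6 genes lay at the 83.9th percentile or above on the 3 IEL arrays. Levels over all genes had an SD of 1.23 on the colon IEL, 1.35 on the recolonized and 1.67 on the small intestinal IEL array. After a lowess correction against level, 2 of the 6 were lower and 2 higher for colon IEL. For the recolonized array 2 were lower and 1 higher.

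Itgae differed by -3.08 (8.43-fold lower) between colon and small intestinal IEL and by -2.42 (5.36-fold lower) between recolonized colon and small intestinal IEL. Of all genes that entered, 2.53% had a difference as low in the first comparison and 3.40% in the second. For Itga1 the differences were -2.71 (6.55-fold) on the colon IEL array and -2.21 (4.61-fold) on the recolonized array. These sizes can be set beside the spread within a comparison: the log2 differences of 29 ribosomal protein genes had an SD of 0.54 in the colon IEL comparison and 0.50 in the recolonized one. Between a pair of probe sets of the same gene the SD of the differences was 1.08 and 0.90. Itgae and Itga1 exceeded both yardsticks in both comparisons, though neither yardstick stands for the spread between mice.

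The T cell content of the arrays was gauged from the CD3 chains Cd3d, Cd3e and Cd3g. Their mean difference was -0.48 for colon and 0.15 for recolonized colon against small intestinal IEL. In that order the chains differed by 0.10, -0.32 and -1.22 for colon and by 1.00, -0.07 and -0.48 for recolonized colon. Values relative to the mean thus depend on which chains are taken. Relative to that mean, Itgae differed by -2.60 on the colon IEL array and by -2.58 on the recolonized array. Itga1 differed by -2.23 and -2.36 on the same scale, again the colon IEL array first and the recolonized array next. Set against CD3 transcripts, the 2 colon arrays thus gave differences of like size for both alpha chains. Under quantile normalization the Itgae difference was -1.89 for colon and -1.61 for recolonized colon, and that of Itga1 -1.54 and -1.34, still past 2-fold.

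Itgb7 differed by -1.58 (2.98-fold lower) on the colon IEL array and by 0.03 on the recolonized array, each against small intestinal IEL. The first of these was -0.41 under quantile normalization and -0.52 after a lowess correction against level, so its 2-fold call ended there. The second was 0.89 and 0.66 in the same order of scalings. Under both scalings Itgb7 was thus within 2-fold of small intestinal IEL on either colon array. Bhlhe40 differed by -1.41 on the colon IEL array and by -1.16 on the recolonized array, and both fell within 2-fold under quantile normalization, at -0.24 and -0.32. B cell markers, whose cells also carry Itgb7 and Itga4, were lower in the same comparisons in 8 of 9 measured genes each. Over all genes 24.4% were lower for colon and 17.9% for recolonized colon. The part of B cells in the Itgb7 values was not tested.

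Itga4 and Cd69 went the other way by less than 2-fold. Itga4 differed by 0.46 on the colon IEL array and by 0.85 on the recolonized array, and Cd69 by 0.35 and 0.28. Under quantile normalization the Itga4 differences were 1.60 and 1.65, past 2-fold, and those of Cd69 were 1.43 and 0.99. The sign of both genes was the same as deposited and under every scaling tried, and their size depended on it.

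**Figure D2:**
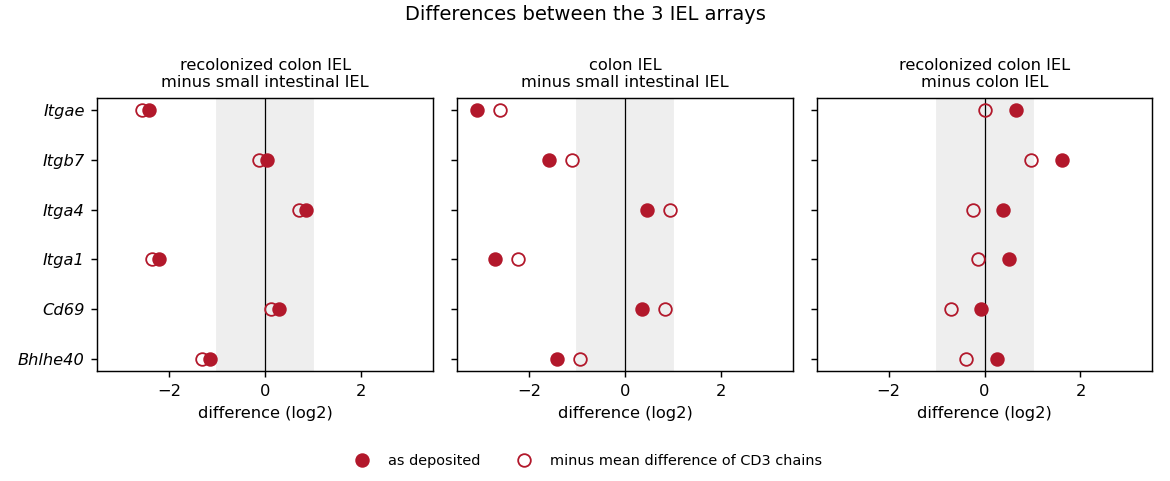
Log2 differences of the 6 genes between pairs of IEL arrays (1 array per group, no error); filled points are the deposited values, open points the same minus the mean difference of 3 CD3 chains, and the grey band is less than 2-fold. Itgae and Itga1 lie left of the band in both panels against small intestinal IEL, and Itgb7 lies right of it, at 1.61, for recolonized against unmanipulated colon IEL.

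Cells other than T cells can also carry some of these integrins. Myeloid markers had medians of 2.31 on the recolonized, 2.75 on the colon IEL and 3.05 on the small intestinal IEL array; of 10 markers, only Itgax and C1qb were 2-fold lower on both colon arrays than on the small intestinal IEL array. Adgre1, which encodes the macrophage protein F4/80, was higher on the colon IEL array, at 2.75 against 1.69, and the brightest marker, Lyz2, was within 2-fold on both, at 5.74 on the recolonized and 6.40 on the colon IEL against 6.65 on the small intestinal IEL array. Mast cell markers had medians of 2.54, 2.58 and 3.03 in the same order of arrays, and the mucosal mast cell proteases Mcpt1 and Mcpt2 were at 6.29 and 4.45 on the small intestinal IEL array. Mcpt1 was at 3.96 on the recolonized and 4.38 on the colon IEL array. Some other mast cell genes stood the other way. The protease gene Cpa3 was at 5.53 on the recolonized and 4.81 on the colon IEL array against 3.96 on the small intestinal IEL array. Tpsb2 was at 2.42 and 2.99 against 2.10, within 2-fold. Kit stood as Mcpt1 did but within 2-fold, at 5.09 and 4.87 against 5.36. Mouse mucosal mast cells and some intestinal dendritic cells are known to carry alphaE, and their part in the Itgae difference was not tested. Stromal markers, whose cells can carry Itga1, had the opposite order, with medians of 5.59 on the recolonized and 5.41 on the colon IEL array against 4.11 on the small intestinal IEL array. T cells also carry Thy1 and Vim of that list.

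The recolonized array was set against the unmanipulated colon IEL array to ask how the genes stood after antibiotics and the return of bacteria. Of the 6 genes 1, Itgb7, was at least 2-fold higher on the recolonized array and none was lower. Over all 12443 genes that entered, 6.04% were higher and 3.06% lower. Itgb7 was at 5.99 on the recolonized against 4.38 on the unmanipulated colon IEL array, a difference of 1.61 (3.05-fold), and 1.15% of all genes that entered differed by as much or more. Ribosomal protein genes had an SD of 0.67 and probe sets of the same gene an SD of 0.73 in this comparison.

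The partner chains of beta7 differed by less: Itgae by 0.65 and Itga4 by 0.39. Itga1 differed by 0.51, Bhlhe40 by 0.25 and Cd69 by -0.07, all within 2-fold. The CD3 chains were higher on the recolonized array as well, by a mean of 0.63 (Cd3d 0.90, Cd3e 0.26 and Cd3g 0.74). Relative to them Itgb7 was higher by 0.98, just under 2-fold, and Itgae by 0.02. On that scale Itga4, Itga1, Bhlhe40 and Cd69 were at -0.24, -0.13, -0.38 and -0.70, so the direction of Itga4, Itga1 and Bhlhe40 turned. That of Itga4 and Bhlhe40 also turned under other scalings, at the lowest to -0.13 and -0.10. Of the B cell markers that entered, 4 of 7 were lower on the recolonized array and none was higher. Over all genes 3.06% were lower and 6.04% higher. The part of B cells in the Itgb7 difference was not tested.

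The unmanipulated colon IEL array also carried red cell transcripts, which sets it apart from the other arrays. The red cell anion exchanger gene Slc4a1 had a level of 7.93 on it, against 2.32 on the recolonized array. The part of this RNA in the lower Itgb7 level of the colon IEL array was not tested.

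The unmanipulated IEL arrays were last set against the array labelled lamina propria, as the labels imply a comparison of the epithelium with the tissue beneath it. Because that array was rich in epithelial and poor in T cell transcripts, these values contrast IEL with such an array. All genes but Bhlhe40 were at least 2-fold higher on the colon IEL array (5 of 6) and on the small intestinal IEL array (5 of 6), and Bhlhe40 was lower on both. The shares over all genes were 10.5% higher and 34.7% lower for colon IEL, and 8.76% higher and 15.7% lower for small intestinal IEL. The median of the 6 genes was 2.07 for colon and 3.65 for small intestinal IEL, against -0.44 and -0.17 for all genes that entered.

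Itga4 had the largest difference of the 6 genes for colon IEL, at 4.71, and Itgae the largest for small intestinal IEL, at 5.57. On the array labelled lamina propria these genes were at the 48.9th and 53.4th percentile of all genes, so the low end of that array limits the sizes. The CD3 chains differed by a mean of 4.70 for colon and 5.18 for small intestinal IEL in the same comparisons. On the array labelled lamina propria Cd3d was at 2.41, Cd3g at 2.61 and Cd3e at 3.72. The low end of that array thus also limits values relative to the CD3 chains. Relative to the CD3 mean Itga4 was at 0.01 for colon and -0.93 for small intestinal IEL, and Itgae at -2.21 and 0.39 in the same order. Itga1 was at -3.33 and -1.09, Itgb7 at -3.06 and -1.96 and Cd69 at -1.83 and -2.65. Bhlhe40 differed by -2.58 on the colon IEL array and by -1.17 on the small intestinal IEL array. After the lowess correction the differences of Bhlhe40 were -0.98 and -0.78, both within 2-fold.

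The other integrin subunits show which chains accompanied the members. Of 22 further subunit genes 21 were measured, and 18 of these reached the array median on at least 1 array. Of the 21 measured, 9 were lowest and 10 highest on the array labelled lamina propria, while Itga2b and Itgb8 were neither. Among the chains lowest there was Itgb2, the common beta chain of leukocyte integrins, at 6.75 on the recolonized, 6.97 on the colon IEL, 7.04 on the small intestinal IEL and 3.34 on the array labelled lamina propria. Itgal, the alpha chain of LFA-1, was at 5.75, 5.01, 5.35 and 2.57 in that order of arrays. Both were within 2-fold between the 3 IEL arrays, unlike Itgae and Itga1.

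Itgb1, the beta chain that pairs with both alpha1 and alpha4, was at 4.42 on the recolonized, 4.28 on the colon IEL, 4.56 on the small intestinal IEL and 6.63 on the array labelled lamina propria. It was thus flat over the IEL arrays, and the Itga1 difference was not shared by its partner chain. Itga2, Itga3, Itga6 and Itgb4, chains that many epithelia use to bind collagen or laminin, were likewise highest on the array labelled lamina propria, at 5.94, 5.95, 6.76 and 5.41.

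Between colon and small intestinal IEL 4 further subunits were lower (Itgax, Itga3, Itgav and Itga6) and none higher, of 13 that entered, a share not far from the 24.4% of all genes that were lower. Itgax, the CD11c chain of myeloid cells that some IEL also carry, had the largest of these differences: it was at 2.50 on the recolonized and 2.10 on the colon IEL array against 5.24 on the small intestinal IEL array. Of all integrin subunits, members included, only Itgae, Itga1 and Itgax were more than 2 log2 units lower on both colon arrays than on the small intestinal IEL array. Itga3 passed that size on the colon IEL array alone, with -2.17 there and -1.49 on the recolonized array. For recolonized against unmanipulated colon IEL, Itgav and Itga6 were 2-fold higher among 17 that entered, where 6.04% of all genes were higher.

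**Figure D3:**
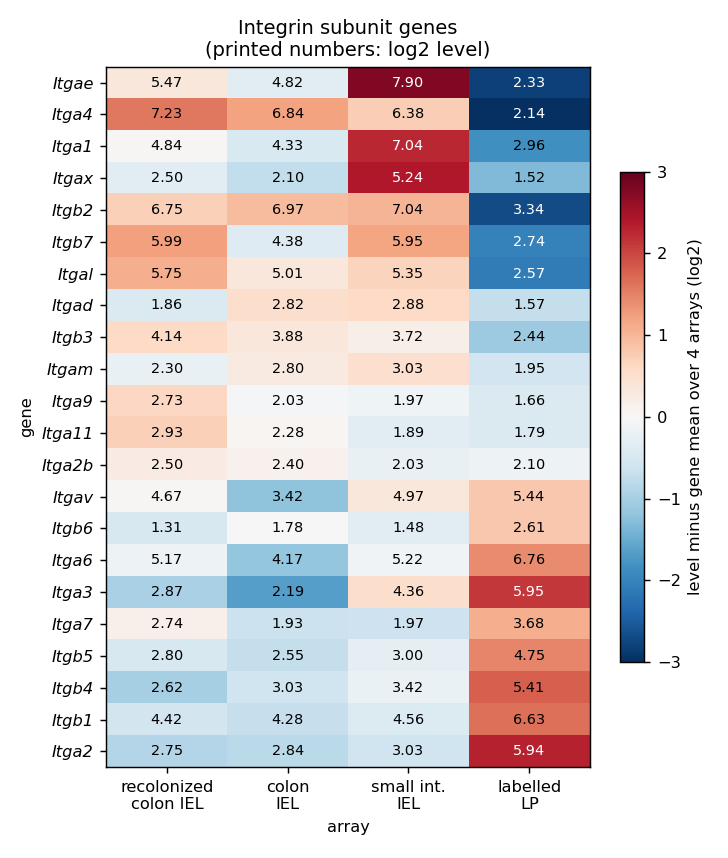
Log2 levels (printed numbers) of the 22 integrin subunit genes that reached the array median on at least 1 array, coloured by the level minus the gene's mean over the 4 arrays; rows run from the most positive to the most negative difference of small intestinal IEL minus the array labelled lamina propria. Itgae, Itga1 and Itgax are strongest in the small intestinal IEL column, whereas Itga4 and Itgb2 are similar in the 3 IEL columns.

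Ligands of these integrins were measured on the same arrays. Cdh1, which encodes E-cadherin, the ligand of alphaE beta7, was at 6.46 on the recolonized, 4.61 on the colon IEL, 6.98 on the small intestinal IEL and 9.23 on the array labelled lamina propria. The array with the most Cdh1 was the one with the least Itgae, and that array was also poor in T cell transcripts. Over the 3 IEL arrays Cdh1 and Itgae stood in the same order. Itgae was at 4.82 on the colon IEL, 5.47 on the recolonized and 7.90 on the small intestinal IEL array. Madcam1 and Vcam1, which encode the vessel ligands of the alpha4 integrins, lay between 2.07 and 2.89 and between 1.98 and 2.11, near the median gene of each array. Col1a1, which encodes a collagen bound by CD49a, was at 6.31 on the recolonized and 7.59 on the colon IEL array. It was at 4.18 on the small intestinal IEL and 3.60 on the array labelled lamina propria. Col1a1 and Itga1 thus stood in opposite order between colon and small intestine, and Col1a2 stood as Col1a1 did. The collagen genes Col4a1 and Col4a2 were within 2-fold in every comparison, at 2.54 to 2.84 and 2.18 to 3.13.

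Of 9 measured genes of integrin activation, all 9 were within 2-fold between either colon array and the small intestinal IEL array. Over all genes 24.4% were lower and 5.98% higher for colon IEL, and 17.9% lower and 4.76% higher for the recolonized array. They include Tln1 (talin, which opens integrins by binding the beta tail), at 5.91, 5.70, 6.38 and 4.95 on the recolonized, colon IEL, small intestinal IEL and the array labelled lamina propria, and Fermt3 (kindlin-3, its partner in blood cells), at 4.71, 4.49, 5.01 and 2.86. Between the colon arrays 1 of the 9, the adaptor gene Fyb, was higher on the recolonized array, at 5.73 against 4.52. In that comparison 6.04% of all genes were higher.

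TGF-beta induces Itgae in T cells. Of 9 genes of that pathway 4 were lower in colon IEL than in small intestinal IEL and none higher; on the recolonized array 2 were lower and 1 higher. Over all genes 24.4% were lower for colon IEL, and 17.9% lower and 4.76% higher for the recolonized array, so 2 of 9 is near the share of all genes. Skil, a repressor of SMAD proteins, was at 3.03 on the recolonized and 2.86 on the colon IEL array against 4.84 on the small intestinal IEL array. Tgfbr1, the type I receptor, was at 2.18 and 2.11 against 3.29, and Tgfbr2, the type II receptor, at 5.53 and 5.24 against 5.19. Smad3, a signal carrier of the pathway, was higher on the recolonized array, at 4.32 against 2.64 on the small intestinal IEL array.

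The wider residency list, which leaves out the 6 members, held 17 genes of which 16 were measured. On the colon IEL array 7 were lower than on the small intestinal IEL array and none higher, with a median of -0.69. On the recolonized array 5 were lower and 1 higher, with a median of -0.46. The shares of all genes lower were 24.4% and 17.9% in these comparisons, and the medians of all genes that entered were -0.30 and -0.20. Cxcr6, a chemokine receptor of resident T cells, was at 2.86 on the recolonized and 2.54 on the colon IEL array against 4.70 on the small intestinal IEL array. Rgs1, which damps chemokine receptor signals, was at 2.91 and 2.51 against 3.96, and Cd101, a surface protein of resident T cells, at 2.64 and 2.26 against 3.89. Runx3, a transcription factor needed for CD8 T cells and for Itgae expression, was level, at 5.31 and 4.91 against 4.67. The gene higher on the recolonized array was the chemokine Xcl1, at 8.03 against 6.73. Fosl2 and Cdkn1a, also lower on both colon arrays, were highest on the array labelled lamina propria, at 7.07 and 7.73. Fosl2 was at 4.40 on the recolonized and 4.18 on the colon IEL array against 5.74 on the small intestinal IEL array. Cdkn1a differed by -1.02 and -1.35 in that order. Cxcr6, Rgs1 and Cd101 were instead lowest on the array labelled lamina propria, at 1.38, 1.41 and 1.78. How far epithelial RNA made up these levels was not tested.

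Genes of egress and recirculation, which resident T cells hold low, were measured for 9 of 10. On the colon IEL array 2 were higher than on the small intestinal IEL array and 1 lower, of 8 that entered; on the recolonized array 4 of 9 were higher and none lower. Over all genes 5.98% were higher and 24.4% lower in the first comparison, and 4.76% higher and 17.9% lower in the second. S1pr1, the receptor that CD69 opposes, was at 6.18 on the recolonized, 5.80 on the colon IEL, 4.97 on the small intestinal IEL and 2.35 on the array labelled lamina propria. Klf2, the transcription factor that drives S1pr1, was at 5.66, 5.25, 4.16 and 2.93 in that order of arrays. Transcripts of S1pr1 and Cd69 were thus both above the array median on each IEL array, and neither was lower on a colon array than on the small intestinal IEL array. Ly6c2, a surface protein of circulating memory T cells and monocytes, was at 6.56 on the recolonized and 2.77 on the colon IEL array against 4.60 on the small intestinal IEL array, in opposite directions.

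**Figure D4:**
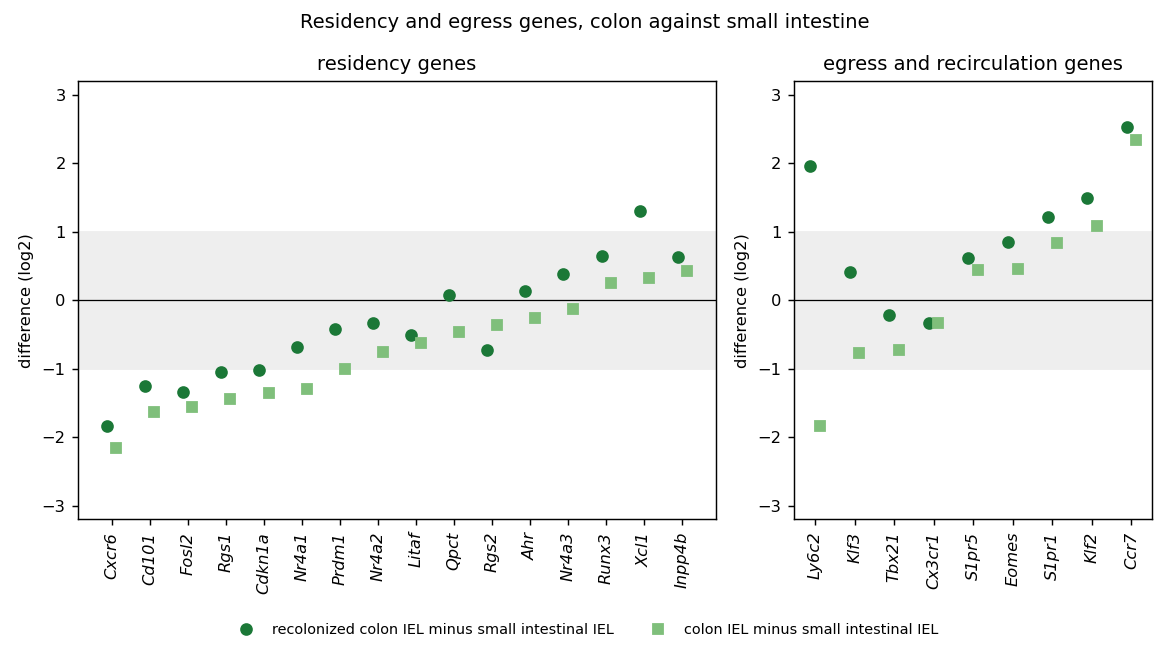
Log2 differences of single genes of the residency list (left) and the egress list (right) for recolonized colon IEL (circles) and unmanipulated colon IEL (squares), each minus small intestinal IEL; the grey band is less than 2-fold, and there are no errors with 1 array per group. Cxcr6 and Cd101 lie below the band in both comparisons, and Ccr7 and Klf2 above it.

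The colon IEL arrays held more Cd4 and less Cd8a transcript than the small intestinal IEL array. Cd8a, a chain of the CD8 co-receptor, was at 7.04 on the recolonized and 6.48 on the colon IEL array against 8.51 on the small intestinal IEL array. Cd4 was at 7.70 and 8.09 against 5.91. CD8 T cells of the epithelium are known to carry more alphaE beta7 than CD4 T cells, and the part of T cell makeup in the Itgae and Itga1 values was not tested.

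Genes with the profile most like each member were taken from the Euclidean distance over the 4 arrays, as a description of 4 points that share the same RNA. Nearest to Itgae were Cst7 (0.79), Cd244a (0.90), Ikzf3 (1.01), St8sia4 (1.03) and Gbp8 (1.04). Cst7 encodes cystatin F of cytotoxic granules, and Cd244a a receptor of natural killer and CD8 T cells. Nearest to Itga1 were AU020206 (0.29), Lax1 (0.33), Cpb1 (0.47), Cxcr6 (0.56) and Slc28a2 (0.56), where Cpb1 encodes a pancreatic carboxypeptidase.

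Itgb7 was closest to Rgs19 (0.49), Itpkb (0.52), Vav1 (0.53), Rftn1 (0.59) and Dock11 (0.59), of which Vav1 and Itpkb encode signalling proteins of lymphocytes. For Itga4 the nearest genes were Fli1 (0.39), Emp3 (0.40), Laptm5 (0.41), Vim (0.42) and Ms4a6b (0.44), and for Cd69 they were Evl (0.29), Lsp1 (0.33), Fmnl1 (0.34), Aff3 (0.41) and Themis (0.41). Bhlhe40 had the closest neighbours, all within 0.13: Wdr36 (0.08), Cnpy2 (0.10), Mien1 (0.11), Mpdu1 (0.12) and Pts (0.13). Wdr36 encodes a ribosome assembly factor, Mpdu1 a protein of glycan synthesis and Pts an enzyme of cofactor synthesis.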

How the data were processed

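The deposited values are log2 levels per probe set of a whole-transcript mouse array, made by the authors in Expression Console of Affymetrix, as the submitters' processing notes state. Which summarization and normalization it ran is not given in the sources used here. Of 41345 probe sets, 23521 listed 1 gene symbol in the platform's gene table, 1814 several and 16010 were not in it. Each of 22180 genes took the brightest, by mean level, of its probe sets that list 1 symbol. Differences were taken between arrays for the same gene, above a level floor at the 50th percentile of the brighter array, and counted at 2-fold; no test or error is possible with 1 array per group. The 6 genes, the lists and the motifs were chosen with earlier results of these data known. The members are always named, and any integrin subunit above the floor may be named. Up to 4 genes of each other list with the largest difference may be named too. So may some genes fixed by name (such as Cdh1, S1pr1, Klf2, Runx3, Cd8a and Cd4) and the 5 nearest profiles per member. The nearest profiles leave out antigen receptor segments, olfactory and vomeronasal receptor genes, genes with Gm or Rik names, small RNAs and the members. Tgfbr2, Itgb8, Kit, Cdkn1a, Col4a1 and Col4a2 were named after their values were seen. Zfp683, Itga10 and Cd247 were not analysed here. Alternatives were other floors and folds, the mean of probe sets, quantile normalization (over 4 arrays and, added after seeing the data, over the 3 IEL arrays), centring on the median or on the CD3 chains, and a lowess correction with a span of 0.3 (statsmodels 0.14.6, Python 3.11.15). The counting step was tested on simulated data.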

Additional observations from a re-analysis of the deposited data

How the results depend on the processing

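Values rest on 1 array per group, so no result has a replicate check, and genes near the array median are limited by the low end of the arrays. No paired analysis was possible because each group has 1 array and no test was made. Counts of members were the same with a floor at the 25th or 75th percentile, with no floor and with the mean of probe sets. These settings could not change them. Each member has 1 probe set, and each lay above the 75th percentile on the brighter array of every pair. For colon against small intestinal IEL, quantile normalization, lowess and quantile normalization of the 3 IEL arrays each gave 2 higher and 2 lower, and a 3-fold threshold gave 2 lower. For recolonized colon against small intestinal IEL, the same 3 scalings, centring on the median and a 1.5-fold threshold each gave 1 higher. For recolonized against unmanipulated colon IEL, a 1.5-fold threshold gave 2 higher and centring on the CD3 chains 0. Against the array labelled lamina propria, the lowess correction gave 0 lower for colon IEL; for small intestinal IEL a 3-fold threshold, quantile normalization, centring on the median and lowess each gave 0 lower. Centring on the CD3 chains, which lay between 2.41 and 3.72 on the array labelled lamina propria, gave 0 higher for both IEL arrays, with 5 lower for colon and 4 lower for small intestinal IEL. It turned the sign for colon IEL of Itgae (-2.21), Itgb7 (-3.06), Itga1 (-3.33) and Cd69 (-1.83), and for small intestinal IEL of Itgb7 (-1.96), Itga4 (-0.93), Itga1 (-1.09) and Cd69 (-2.65). Of the single-gene differences under other scalings and the mean of probe sets, 101 moved by less than the SD of the ribosomal protein genes, 59 by more, and the 8 differences past 2-fold just given turned. Those under the mean of probe sets are all among the 101, as they could not move. The sign also turned under at least 1 setting for 4 differences within 2-fold: Itga4, Itga1 and Bhlhe40 between the colon arrays, and Itgb7 between recolonized colon and small intestinal IEL (-0.12 relative to the CD3 chains). The cause was not tested. The alternative for linear values was not run, since the values were log2.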

Other observations

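Clock genes, some of which BHLHE40 is known to repress through E-boxes, were measured for 8 of 9, and 7 entered the comparisons along the gut. On both the colon IEL and the recolonized array 3 of these 7 were at least 2-fold lower than on the small intestinal IEL array and none was higher, where 24.4% and 17.9% of all genes were lower. Nr1d1, which encodes the repressor REV-ERB alpha, was at 3.92 on the recolonized and 3.68 on the colon IEL array against 6.73 on the small intestinal IEL array. Clock, an activator of the loop, was at 4.75 and 3.85 against 6.64, and Nr1d2 was at 3.36 and 4.02 against 5.71. On the array labelled lamina propria, rich in epithelial transcripts, Nr1d1 was at 6.45, Clock at 7.83 and Nr1d2 at 5.23. The part of epithelial RNA in these levels was not tested. Per1, chosen after its values were seen, was level over all 4 arrays, at 5.29 on the recolonized, 5.12 on the colon IEL, 5.09 on the small intestinal IEL and 5.21 on the array labelled lamina propria. Bhlhe41, the close relative of Bhlhe40, lay between 1.36 and 1.73 on every array, below each array's median gene; it too was chosen after its values were seen. The hour at which the mice were killed is not given in the labels.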
